A study of Mus musculus with 20 samples.

Results

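The genes described here are 4 ligands and 1 receptor of the tumor necrosis factor (TNF) superfamily, Cd40lg, Tnfsf8, Tnfsf11, Tnfsf14 and Tnfrsf9, chosen by name as genes of T cell help to B cells and read from the rows of these 5 genes among the 13798 genes of a single-cell RNA-seq matrix of follicular T cells. The choice was made with earlier results of these data known. All cells came from spleens of C57BL/6 bone marrow chimeras, made by irradiating wild-type recipients aged 8 to 10 weeks and analysed at week 10. WT chimeras (5 mice) received congenic wild-type marrow and were immunized with the hapten-protein conjugate NP-OVA in alum at week 6 (the study's methods add a later NP-OVA booster), so their follicular response was to a foreign antigen. Autoimmune chimeras (5 mice, 564Igi) received wild-type marrow mixed with marrow of 564Igi mice, in which knocked-in heavy and light chain genes of 1 autoreactive B cell receptor against ribonuclear antigens set off spontaneous germinal centers, so these mice model autoimmunity driven by B cells of a single specificity. Follicular T cells were sorted as CD4+ cells with CXCR5 and PD-1 on their surface that carried the CD45.2 and not the CD45.1 allele, and 1 droplet library of 5′ transcript ends with matched T cell receptors was made for each mouse. Immunization, marrow and B cell specificity differ between the chimeras together, so their parts in any difference between the groups cannot be told apart.

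Ligands of the TNF family are made as trimers on the surface of activated T cells and pass signals to cells that carry the matching receptor. The receptors recruit TRAF adaptors inside the receiving cell and switch on NF-kB and kinase pathways that support survival, proliferation and maturation. In the germinal center, T follicular helper (TFH) cells give B cells CD40 ligand, encoded by Cd40lg, together with cytokines such as IL-21 and IL-4, and T follicular regulatory (TFR) cells, which express Foxp3, restrain the reaction. Tnfsf8 encodes CD30 ligand, whose receptor CD30 is found on activated lymphocytes. Tnfsf11 encodes RANKL, best known for driving osteoclast formation and lymph node development. Tnfsf14 encodes LIGHT, which binds HVEM and the lymphotoxin beta receptor. Tnfrsf9 encodes 4-1BB, which is not a ligand but a costimulatory receptor carried by activated and regulatory T cells. The name of B cell help ligands therefore fits the first 4 genes by function and leaves Tnfrsf9 apart.

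The matrix held 28192 cells, 14965 from WT and 13227 from 564Igi chimeras, with 1890 to 4030 and 1121 to 3120 cells per mouse. Totals of 7884205 to 15241983 raw unique molecular identifiers (UMIs) per WT mouse and of 3424280 to 14827300 per 564Igi mouse gave median cells of 2728 to 4375.5 UMIs. The clusters are those of the study: activated TFH (11953 cells), TFR (11650 cells), TFH that express Sostdc1 (2803 cells), and small clusters named central memory (725 cells), effector (682 cells) and ISG, for interferon-stimulated genes (379 cells). Cd3e was found in 99.4% of cells, Cd4 in 67.3%, Pdcd1 in 75.6% and Cxcr5 in 40.7%, and Foxp3 in 56.0% of cells of the TFR cluster against 7.20% of the activated cluster. Of genes of B cells, 0.0554% of cells held Ms4a1, 0.253% Cd79a, 2.83% Fcmr, 3.52% Cd79b and 4.37% Cd22. These 5 of 7 B cell markers summed to 0.380 to 0.444 UMIs per 10000 in WT and 0.269 to 0.455 in 564Igi mice. Cd8b1, a gene of CD8 T cells, was found in 4.59% of cells. Myeloid markers (5 of 6 in the matrix) summed to 1.66 to 2.61 and 1.54 to 2.40, where Cst3 was found in 45.3% of cells and the others in at most 0.231%. The libraries of mice 34 (564Igi) and 36 (WT) are numbered apart from the rest and had the highest heat shock scores, 0.115 and 0.0809. Across libraries, 491 barcode sequences occurred in more than 1 mouse.

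In the mouse genome (GRCm38, GENCODE M21) Cd40lg spans chromosome X, 57212143 to 57224042, on the plus strand, Tnfsf8 chromosome 4, 63831308 to 63861347, on the minus strand, Tnfsf11 chromosome 14, 78277445 to 78308043, on the minus strand, Tnfsf14 chromosome 17, 57189492 to 57194177, on the minus strand, and Tnfrsf9 chromosome 4, 150914562 to 150946102, on the plus strand. Tnfrsf9 overlaps Camta1, which lies on the opposite strand, over 28781 bases, and whether the counting used strand is not given in the sources used here, so the Tnfrsf9 values carry that uncertainty. Promoter windows from RefSeq (GRCm38.p6, 250 bases before to 50 after the start) were found for 4 of the 5 genes. Those of Tnfsf8 and Tnfsf11 are shown because the levels of these genes differed most between the chimeras, in opposite directions. Each is written 5′ to 3′ on the gene's strand, Tnfsf8 at chr4:63861235-63861534 and Tnfsf11 at chr14:78307994-78308293, both minus, and capitals mark matches on either strand to GGAAA (the core bound by NFAT), TGANTCA (AP-1) or GGGNNNNNCC (NF-kB).
Tnfsf8: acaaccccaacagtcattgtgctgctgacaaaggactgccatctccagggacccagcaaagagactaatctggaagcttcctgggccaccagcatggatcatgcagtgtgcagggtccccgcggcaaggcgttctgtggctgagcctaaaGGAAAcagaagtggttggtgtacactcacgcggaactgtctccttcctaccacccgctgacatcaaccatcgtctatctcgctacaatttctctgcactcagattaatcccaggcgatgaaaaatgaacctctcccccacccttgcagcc
Tnfsf11: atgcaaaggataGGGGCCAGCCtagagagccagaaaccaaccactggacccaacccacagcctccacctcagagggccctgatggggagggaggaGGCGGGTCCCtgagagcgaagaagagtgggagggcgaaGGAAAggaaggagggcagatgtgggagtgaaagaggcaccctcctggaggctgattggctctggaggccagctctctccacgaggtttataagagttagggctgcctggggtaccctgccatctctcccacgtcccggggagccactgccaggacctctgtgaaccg
Both windows held 1 NFAT core and no AP-1 match, and the Tnfsf11 window held 2 NF-kB matches where the Tnfsf8 window held 0. These letters are common: of 32851 RefSeq promoter windows of this length, 61.3% held GGAAA, 50.8% GGGNNNNNCC and 7.81% TGANTCA. A match describes the letters and not a bound site.

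Cd40lg and Tnfsf8 were highest in the helper clusters. Cd40lg, the gene of the signal that B cells need for germinal centers, was found in 48.8% to 69.9% of Sostdc1 cells over the 10 mice, with a median of 59.1%, and in 39.0% to 58.1% of activated cells, with a median of 48.4%. In the TFR cluster it was found in 14.6% to 21% of cells, with a median of 18.1%. The Sostdc1 share lay above the activated share in 10 of 10 mice, although the ranges over mice overlapped, and the activated range lay wholly above that of the ISG cluster (30.9% ± 7.65, SD, n = 8 mice with 20 cells or more). Below these came the effector cluster at 11.5% ± 4.42 (n = 10) and the central memory cluster at 4.67% ± 3.32 (n = 8), whose neighbours in the order overlapped. No sorted cell type lacks these genes for certain, so the central memory share, at a median depth of 4027 UMIs per cell against 3547 in activated cells, is the highest level that RNA free in the droplets could give to Cd40lg in all clusters alike.

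Tnfsf8 had the same 4 leading clusters in the same order at higher shares, 77.0% ± 5.96 of Sostdc1, 63.5% ± 5.20 of activated, 45.9% ± 10.2 of ISG and 21% ± 2.99 of TFR cells. Sostdc1 exceeded activated cells in 10 of 10 mice with overlapping ranges, and the ISG range did not overlap that of TFR. The TFR, central memory (18.1% ± 4.47) and effector (16.8% ± 5.62) shares overlapped one another. By the same reasoning the lowest of these is the highest share that free RNA could give to all clusters alike, and the TFR share lay near it. A Tnfsf8-positive cell of WT mice held 1.94 corrected UMIs in TFR, 1.26 in central memory and 1.35 in effector cells. In 564Igi mice these were 2.38, 1.38 and 2.025. The part of free RNA in the TFR values was not tested. Of the Tnfsf8-positive cells 40.2% held 1 corrected UMI, and 414 cells held 10 or more. For Cd40lg these were 60.8% and 47 cells. Counts were corrected for depth, and levels are compared between cells and not between genes.

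Tnfsf11 and Tnfsf14 were shared more evenly between helper and regulatory cells. Tnfsf11 (RANKL) was found in 33.4% ± 6.60 of Sostdc1, 30.5% ± 6.28 of activated and 26.0% ± 6.43 of TFR cells. The activated share exceeded that of TFR in 10 of 10 mice, and the Sostdc1 share exceeded the activated one in 8 of 10, with overlapping ranges throughout. In cells of 3000 to 4500 raw UMIs the first 2 changed places, at 31.5% of activated and 30.5% of Sostdc1 cells. Tnfsf14 (LIGHT) was found in 13.3% ± 2.67, 10.8% ± 2.64 and 7.25% ± 1.61 of Sostdc1, activated and TFR cells, and 86.3% of its positive cells held 1 UMI. In the central memory cluster Tnfsf11 was found in 6.50% ± 4.76 and Tnfsf14 in 1.96% ± 2.33 of cells. TFR cells made up 38.5% of all Tnfsf11-positive and 33.0% of all Tnfsf14-positive cells, against 21.6% of Cd40lg-positive and 19.4% of Tnfsf8-positive ones.

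Tnfrsf9 (4-1BB) ran the other way. It was found in 52.2% to 63.9% of TFR cells over the 10 mice, with a median of 60.5%, but in 12.1% to 27.1% of activated cells, with a median of 16.5%. The 2 ranges did not overlap, and 68.2% of all Tnfrsf9-positive cells were TFR cells. The central memory cluster came next at 37.6% ± 11.9, where 7 of 8 mice lay below their own TFR share, and effector (25.5% ± 9.01), ISG (24.1% ± 9.45), Sostdc1 (20.7% ± 6.51) and activated cells followed with overlapping ranges. With each cell thinned to 2800 corrected UMIs, the cluster with the highest share stayed the same for 5 of the 5 genes. The clusters were built from these cells, so the order is a description and no test was made between clusters.

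**Figure D1:**
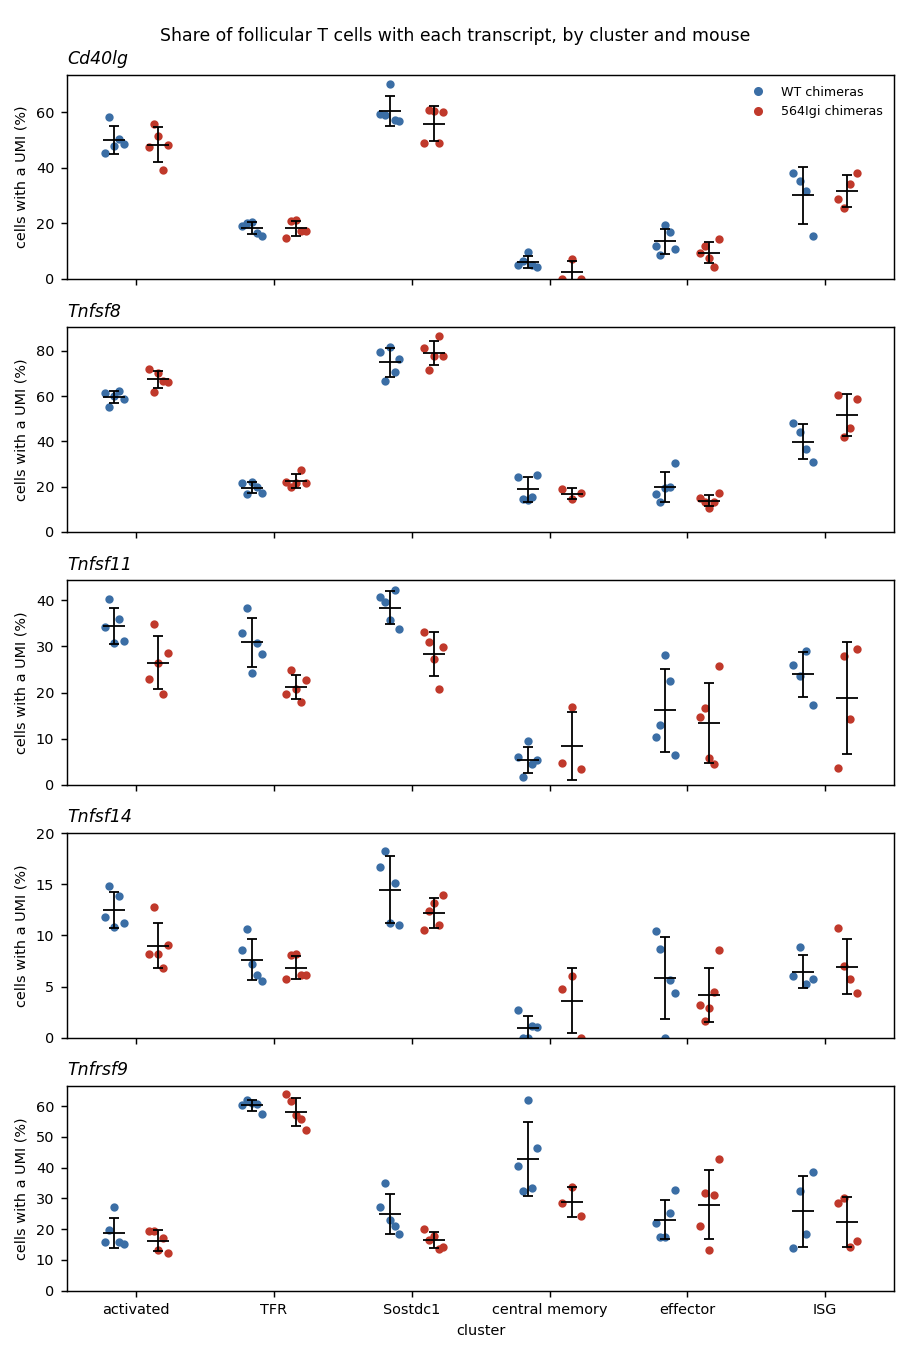
Percent of cells with at least 1 corrected UMI of each of the 5 genes (y axis) in the 6 clusters (x axis), with 1 point per mouse, WT and 564Igi in different colours, and bars for mean and SD of each group. The 4 ligands are highest in Sostdc1 and activated cells, and Tnfrsf9 is highest in TFR cells, at 52.2% to 63.9%.

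Over the 56 mean levels of a cluster in a mouse, the gene most like Cd40lg of 9959 tested was Gm14718 (Pearson's r = 0.94), whose span starts upstream of Cd40lg on the same strand and ends 7764 bases before it, followed by the helper cytokine Il4 (0.91) and Il6ra (0.91), part of the IL-6 receptor. Tnfsf8 was most like Gpm6b (0.94), the helper cytokine Il21 (0.93) and Cd40lg itself (0.91). The nearest to Tnfsf14 were Tbc1d4, Gstp3 and Cd40lg, and to Tnfsf11 Smpdl3a, H1f0 and C030034L19Rik, at r of 0.77 to 0.80. For Tnfrsf9 they were Cd81, Ecm1 and Lrrc32, the last a surface protein of regulatory T cells that presents latent TGF-beta, at 0.80 to 0.81, whereas its r with Cd40lg was -0.53 and with Tnfsf8 -0.59. These values share mice, libraries and the clusters themselves, and describe likeness of pattern alone.

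To ask whether the ligands differed between a foreign-antigen and an autoimmune response, the mean of log2(corrected count + 1) over the cells of each mouse was compared with limma across all genes. A call needed a p below 0.01 after Benjamini-Hochberg adjustment over all genes tested and a log2 difference of more than 0.2 in size. On this scale a fall of more than 0.2 was out of reach for Tnfsf14. Its mean WT level was 0.110 over all cells and at most 0.158 in any cluster. The same held for Cd40lg and Tnfsf11 in effector and central memory cells, where their mean WT levels were below 0.2. None of the 5 genes was called over all follicular T cells, where the test called 1 of 9959 genes (0.010%), nor in the activated (0.0101%), TFR (0.0200%), Sostdc1 (0.0202%), central memory (0%, with 784 genes at an unadjusted p below 0.05), effector (0.0104%) or ISG (0.0106%) cells. At an unadjusted p below 0.05 stood 2 of the 5 genes over all cells (3.19% of all genes), 3 in activated (3.99%), 2 in TFR (3.50%) and 2 in Sostdc1 cells (4.60%). Groups of mice that did not overlap were seen for 1 gene over all cells (0.452% of genes), 1 in activated (0.385%), 0 in TFR (0.710%) and 1 in Sostdc1 cells (0.840%). These p-values measure the spread between mice, and 5 against 5 mice allow an exact permutation p of 0.00794 at the smallest.

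Tnfsf8 had higher means in autoimmune chimeras. Over all follicular T cells its log2 level was 0.67, 0.51, 0.75, 0.69 and 0.73 in WT mice 11, 12, 14, 23 and 36, and 0.91, 0.75, 0.89, 0.96 and 0.90 in 564Igi mice 13, 17, 21, 24 and 34. Each 564Igi mouse lay above each WT mouse, the nearest pair being mouse 17 at 0.753 and mouse 14 at 0.745. The difference was 0.21 ± 0.048 (SE, n = 5 and 5; limma p = 0.00025, adjusted p = 0.157; exact permutation p = 0.00794, the smallest possible). Cells with the transcript made up 41.1% ± 4.55 in WT and 48.2% ± 2.71 in 564Igi mice, again without overlap (exact permutation p = 0.00794). That separation was very narrow, with the highest WT mouse at 44.0741% and the lowest 564Igi mouse at 44.075%.

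Transcripts per positive cell differed too. A Tnfsf8-positive cell held 2.58 ± 0.240 corrected UMIs in WT and 3.21 ± 0.308 in 564Igi mice (n = 5 and 5, exact permutation p = 0.0159), a ratio of 1.24. Over the 4918 genes found in at least 10% of cells this ratio had a median of 1.01 and lay between 0.98 and 1.06 from the 5th to the 95th percentile. For Cd40lg the ratio was 1.04, for Tnfsf11 0.956 and for Tnfrsf9 1.08. A positive cell holds at least 1 UMI, so this ratio cannot show how level the corrected scales of the chimeras were. Mean corrected totals per cell of a mouse were 3365.65 to 3629.82 in WT and 3385.29 to 3835.58 in 564Igi mice.

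By cluster, the Tnfsf8 difference on the log2 scale was larger in activated TFH cells than in TFR or Sostdc1 cells. The activated cluster held 60.8% of positive cells. The small ISG cluster, with 1.36% of them, had the largest difference, at 0.35 with overlapping groups. As ratios of UMIs per 10000, 564Igi to WT, activated (1.40) and TFR cells (1.37) were close, and Sostdc1 cells were lower. In activated TFH cells the log2 level was 1.01, 0.89, 1.04, 1.02 and 1.02 in the WT mice and 1.48, 1.08, 1.30, 1.31 and 1.22 in the 564Igi mice. All 564Igi mice lay above all WT mice, with mouse 13 highest and mouse 17 nearest to WT. The difference was 0.28 ± 0.072 (limma p = 0.0008, adjusted p = 0.561; exact permutation p = 0.00794), with 59.6% ± 2.75 positive cells in WT and 67.4% ± 3.90 in 564Igi mice. In that share of positive cells the groups overlapped (exact permutation p = 0.0159). In the TFR cluster the levels were 0.31, 0.23, 0.31, 0.26 and 0.24 against 0.35, 0.30, 0.32, 0.42 and 0.32. There 4 of 5 564Igi mice exceeded all WT mice, and the difference was 0.075 ± 0.024 (adjusted p = 0.65 by limma, exact permutation p = 0.0238). The share of Tnfsf8-positive cells in TFR was near those of effector and central memory cells, where this difference was -0.028 and -0.013. In Sostdc1 cells the difference of 0.19 (adjusted p = 1.0 by limma, exact permutation p = 0.167) lay within the overlap of the groups, at 1.16 to 1.62 in WT and 1.37 to 1.88 in 564Igi mice. It was 0.11 without 564Igi mouse 24 and close to 0 between mice 34 and 36, both at 1.49.

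Tnfsf11 had lower means in autoimmune chimeras, and in each of the 3 large clusters. The study, with cells as the units of its test, had already listed Tnfsf11 among genes lower in these chimeras and in human lupus. The values below come from the same mice and are no independent support for that. Over all cells its log2 level was 0.39, 0.48, 0.33, 0.40 and 0.36 in WT and 0.27, 0.36, 0.27, 0.22 and 0.32 in 564Igi mice. All 564Igi mice but mouse 17 lay below all WT mice. The difference was -0.11 ± 0.029 (limma p = 0.00135, adjusted p = 0.496; exact permutation p = 0.0238), and positive cells made up 31.8% ± 3.86 in WT and 23.9% ± 4.56 in 564Igi mice.

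Within clusters the Tnfsf11 differences were close to each other, at -0.11 in activated, -0.13 in TFR and -0.13 in Sostdc1 cells. In TFR cells the levels were 0.41, 0.50, 0.29, 0.38 and 0.35 in WT and 0.24, 0.30, 0.26, 0.22 and 0.27 in 564Igi mice, where 4 of 5 mice lay below all WT mice and WT mouse 14 was the lowest of its group (adjusted p = 0.103 by limma, exact permutation p = 0.0159). In the Sostdc1 cluster they were 0.51, 0.47, 0.42, 0.50 and 0.40 against 0.39, 0.36, 0.30, 0.23 and 0.35, and the groups did not overlap (difference -0.13 ± 0.035, adjusted p = 0.453 by limma, exact permutation p = 0.00794, the smallest possible). The share of positive cells was 38.4% ± 3.55 and 28.4% ± 4.76 there, and 30.9% ± 5.23 and 21.2% ± 2.70 in TFR. In activated cells 4 of 5 564Igi mice lay below all WT mice (adjusted p = 0.95 by limma, exact permutation p = 0.0317). Without WT mouse 14 the TFR difference was -0.15 with an adjusted p of 0.0088 by limma, still under the difference of 0.2 that a call required. With all 10 mice the mean WT level in TFR cells was 0.384. The ratio of UMIs per 10000, 564Igi to WT, was 0.633 there.

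Sex and the libraries numbered apart were split unevenly, so the differences were also computed within them, with no test. For Tnfsf8 over all cells the difference was 0.31 in mice labelled female (2 WT and 3 564Igi), 0.13 in mice labelled male (3 and 2), 0.22 without mice 34 and 36, and 0.17 between that pair. For Tnfsf11 in TFR cells the same differences were -0.20, -0.08, -0.14 and -0.08, and in Sostdc1 cells they were -0.14, -0.15, -0.15 and -0.045. The direction was shared by all of these subsets. Differences between males were less than 0.5 times those between females for Tnfsf8 over all cells and in activated cells (0.38 and 0.17) and for Tnfsf11 over all cells (-0.16 and -0.072), in activated (-0.16 and -0.060) and in TFR cells, and for Tnfrsf9 in Sostdc1 cells they were -0.19 in females and -0.096 in males. The pair of mice 34 and 36 gave the smallest Tnfsf11 differences, -0.038 over all cells and -0.030 in activated cells.

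Cd40lg did not differ beyond the spread of mice in any of the large clusters. Over all cells its log2 level was 0.41, 0.48, 0.50, 0.45 and 0.47 in WT and 0.41, 0.56, 0.52, 0.39 and 0.50 in 564Igi mice, so that 564Igi mice were both the highest and the lowest. The difference was 0.015 ± 0.031 (adjusted p = 1.0 by limma, exact permutation p = 0.683), and it was -0.018 in activated, 0.012 in TFR and -0.084 in Sostdc1 cells, with exact permutation p-values of 0.762, 0.532 and 0.246. In TFR cells, positive cells made up 18.3% and 18.1% while each held 1.66 ± 0.138 corrected UMIs in WT and 1.96 ± 0.166 in 564Igi mice (exact permutation p = 0.0159).

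Tnfsf14 was found in 10.1%, 12.3%, 8.84%, 10.2% and 8.51% of cells of the WT mice and in 7.14%, 10.5%, 8.53%, 6.51% and 8.41% of those of the 564Igi mice. The groups overlapped (log2 difference -0.019, exact permutation p = 0.143). In activated cells 12.5% ± 1.75 of WT and 9.01% ± 2.24 of 564Igi cells were positive, with 4 of 5 564Igi mice below all WT mice (log2 difference -0.037, adjusted p = 1.0 by limma, exact permutation p = 0.0317). The TFR difference was -0.0080 with an exact permutation p of 0.635.

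The share of Tnfrsf9-positive cells had lower means in 564Igi mice among Sostdc1 cells. There it was found in 27.3%, 35%, 23.1%, 21.1% and 18.5% of WT and in 19.9%, 16.5%, 17.6%, 13.4% and 14.2% of 564Igi cells. All 564Igi mice but mouse 13 lay below all WT mice (log2 difference -0.12 ± 0.035, adjusted p = 0.596 by limma, exact permutation p = 0.0159). In TFR cells the shares were 60.3%, 61.9%, 61.0%, 60.6% and 57.4% against 63.9%, 61.5%, 57.0%, 55.9% and 52.2%, and the log2 difference was 0.0029 ± 0.054 (exact permutation p = 0.968). Those 564Igi shares spread more widely than the WT ones, and a positive TFR cell held 3.11 ± 0.0924 corrected UMIs in WT and 3.43 ± 0.158 in 564Igi mice (exact permutation p = 0.00794). Over all cells the difference was -0.065 (exact permutation p = 0.294) while the TFR cluster held 43.2% of cells in WT and 39.0% in 564Igi mice.

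**Figure D2:**
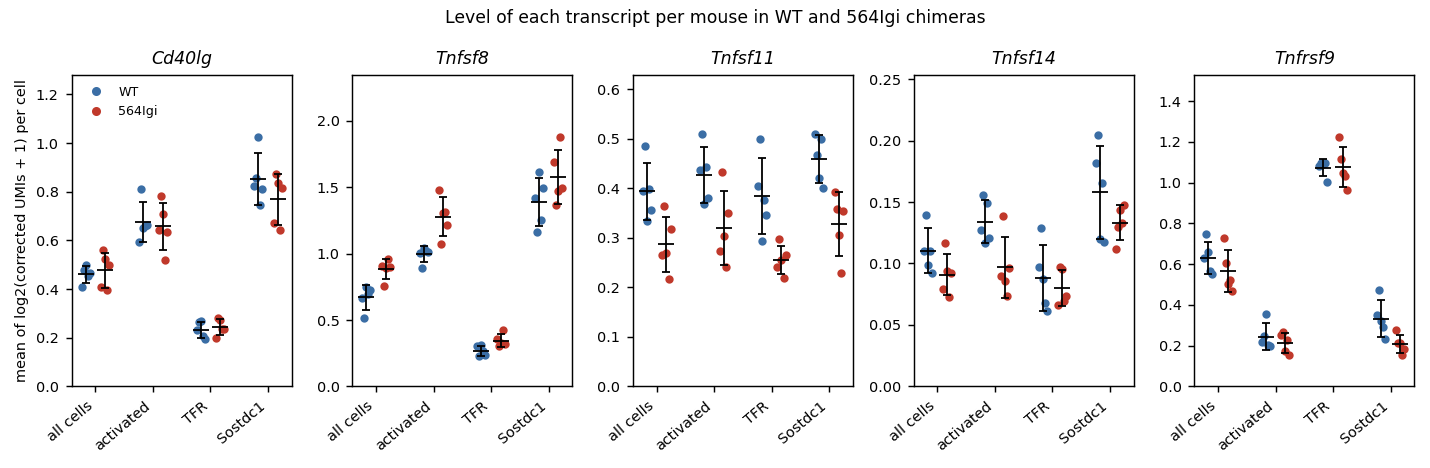
Mean log2(corrected count + 1) of each of the 5 genes (y axis) over all follicular T cells and in the activated, TFR and Sostdc1 clusters (x axis), 1 point per mouse, with WT beside 564Igi and bars for mean and SD of 5 mice. For Tnfsf8 the 564Igi mice lie above all WT mice over all cells and in activated cells, and for Tnfsf11 they lie below all WT mice in Sostdc1 cells.

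Few values came from the small clusters. In ISG cells the Tnfsf8 log2 level was 0.56 ± 0.144 in 4 WT and 0.91 ± 0.187 in 4 564Igi mice, a difference of 0.35 (adjusted p = 0.476 by limma, exact permutation p = 0.0571, where the smallest possible is 0.0286). In effector and central memory cells the difference given above had exact permutation p-values of 0.5 and 0.75. The other 4 genes had exact permutation p-values of 0.179 or more in these clusters.

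Whether the differences between chimeras varied by cluster was tested for each gene, TFR and Sostdc1 against activated cells, as 10 differences over mice. For Tnfsf8 the difference between chimeras was smaller in TFR than in activated cells by -0.21 ± 0.062 on the log2 scale (exact permutation p = 0.0159). The fit across all genes gave an adjusted p of 0.966 by limma and called no gene in either contrast (0%, with 704 genes for TFR and 612 for Sostdc1 at an unadjusted p below 0.05). As ratios of UMIs per 10000, Tnfsf8 differed between chimeras 1.40-fold in activated and 1.37-fold in TFR cells. The other 9 differences had exact permutation p-values of 0.0873 or more.

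Co-detection in single cells was measured within each mouse and cluster and within 5 classes of cells of rising raw UMIs, as the observed number of cells holding both transcripts over the number expected if they were found independently. In activated TFH cells the 6 ligand pairs were found together somewhat more often than independence gives, with mean ratios of 1.03 to 1.25, and 4 of the 6 pairs lay above 1 in 10 of 10 mice. The ratio was 1.05 for Cd40lg with Tnfsf8 (above 1 in 9 mice), and the highest among ligands was 1.25 for Tnfsf11 with Tnfsf14, which ran from 1.14 to 1.38 over the mice. In the Sostdc1 cluster Cd40lg with Tnfsf8 gave 1.02. Cells of the activated cluster that held Foxp3 stood apart, since the ratio of Foxp3 was 1.88 with Tnfrsf9 (1.18 to 2.74), 0.602 with Cd40lg and 0.525 with Tnfsf8.

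In the TFR cluster the mean ratios of the 6 ligand pairs were higher, at 1.17 to 1.97. Cd40lg and Tnfsf8 were both found in 770 cells where 452 were expected, a mean ratio of 1.69 over mice, with all 10 mice between 1.51 and 1.99. The ratios for Tnfsf14 were 1.97 with Cd40lg (1.59 to 2.95) and 1.90 with Tnfsf8 (1.10 to 2.68), those for Tnfsf11 were lower, at 1.29 with Cd40lg, 1.17 with Tnfsf8 and 1.38 with Tnfsf14. At a detection threshold of 2 UMIs, which fewer cells pass, the ratio of Cd40lg with Tnfsf8 was 3.72 and that of Cd40lg with Tnfsf14 was 7.41.

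Tnfrsf9 was found less often than independence gives in those TFR cells that held Cd40lg, Tnfsf8 or Tnfsf14. Its ratio was 0.756 with Cd40lg (0.630 to 0.897, below 1 in 10 of 10 mice), 0.786 with Tnfsf14 and 0.837 with Tnfsf8. With Tnfsf11 it was near 1, at 0.969, and at 2 UMIs it was 1.01, above 1 in 6 of 10 mice. Helper cytokines and Foxp3 divided the same cells. Il21, which TFH cells make for B cells, gave ratios of 2.20 with Cd40lg, 2.22 with Tnfsf8, 2.25 with Tnfsf14, 1.18 with Tnfsf11 and 0.574 with Tnfrsf9. Il4 gave 2.02, 1.45 and 2.54 with Cd40lg, Tnfsf8 and Tnfsf14, and 0.711 with Tnfrsf9. Foxp3, the regulatory factor, gave 1.13 with Tnfrsf9 but 0.722 with Cd40lg, 0.644 with Tnfsf8, 0.644 with Tnfsf14 and 0.910 with Tnfsf11. Cd4, which all sorted cells carry, gave 0.97 to 1.10 with the 5 genes, and lay above 1 in 10 of 10 mice with Cd40lg and with Tnfsf8. At 2 UMIs Cd4 gave 1.37 with Cd40lg, 1.44 with Tnfsf8, 1.56 with Tnfsf14 and 1.09 with Tnfsf11, but 0.952 with Tnfrsf9. Ratios with these ligands thus rose at 2 UMIs for this partner too, though less than between Cd40lg, Tnfsf8 and Tnfsf14. At 1 UMI the TFR ratios of WT and 564Igi mice did not overlap for 8 of 30 pairs, against 1 of 30 each in activated and Sostdc1 cells, but at 2 UMIs the groups overlapped for each of those 8 pairs and did not for 1 other, Cd40lg with Tnfrsf9 (0.614 and 0.362). For Tnfsf8 the mean ratio was 0.928 in WT and 0.746 in 564Igi mice with Tnfrsf9, and 0.718 and 0.571 with Foxp3 (0.854 and 0.546, and 0.414 and 0.216, at 2 UMIs). For Cd40lg with Foxp3 it was 0.807 and 0.637 (0.395 and 0.308 at 2 UMIs), and for Tnfrsf9 with Foxp3 it was 1.09 and 1.18 (1.19 and 1.33). For Cd40lg with Il4 it was 1.69 and 2.35 at 1 UMI, and 4.79 and 4.78 at 2 UMIs, so that difference was not seen at the higher threshold. The other 3 were Tnfsf11 with Tnfrsf9 and with Foxp3 and Tnfsf14 with Tnfrsf9, all lower in 564Igi mice. Pairs share genes and cells, and these groups were described without a test. The share of other gene pairs without overlap was not computed, so the count of 8 has no background beside it. Cells that share a cluster name but hold helper transcripts, droplets of more than 1 cell and true co-expression would each enter these counts, and their parts were not tested.

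**Figure D3:**
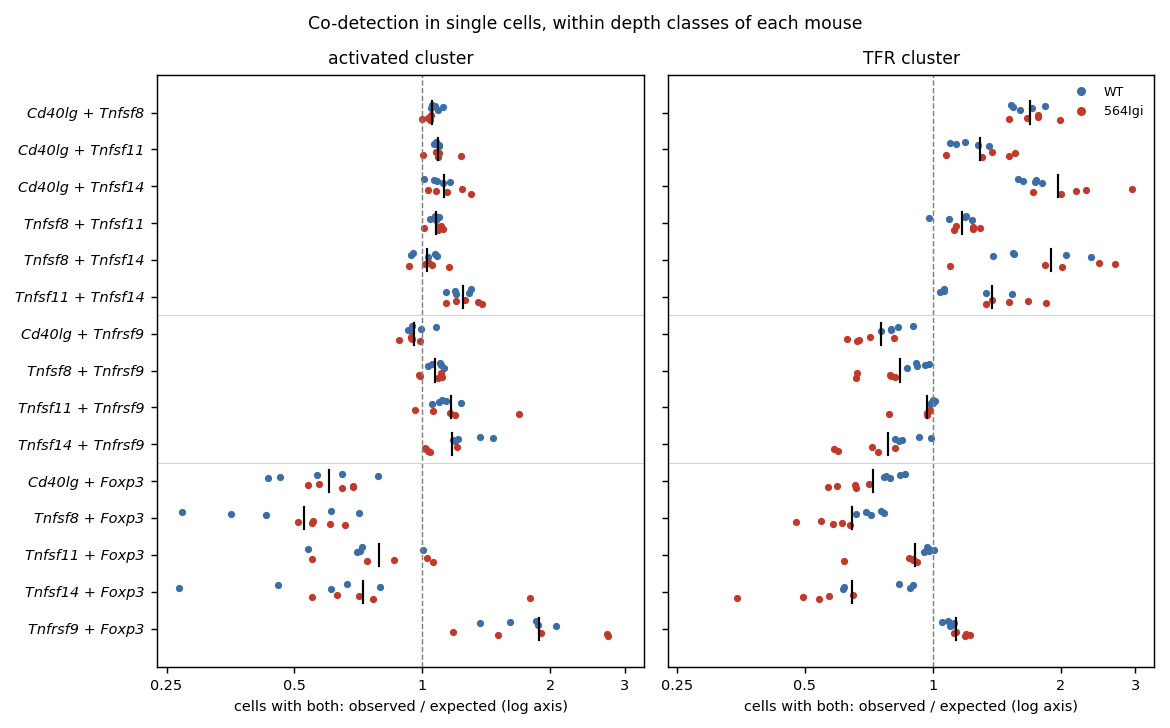
Observed over expected number of cells holding both transcripts of a pair (x axis, log scale, pairs on the y axis) in the activated and TFR clusters, 1 point per mouse in the colour of its group, with a tick at the mean and a dashed line at 1, which is what independence gives. In TFR cells the pairs of Cd40lg, Tnfsf8 and Tnfsf14 lie to the right of 1 in every mouse, and the pairs of these ligands with Tnfrsf9 have means of 0.756 to 0.837.

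Counting how many of the 4 ligand transcripts a cell held gave the same division. At least 2 were found in 62.8% ± 4.88 of Sostdc1 and 50.3% ± 5.26 of activated cells, but in 16.7% ± 2.01 of TFR, 31.3% of ISG, 9.51% of effector and 3.41% of central memory cells. None was found in 6.65% of Sostdc1, 14.3% of activated and 49.7% of TFR cells. All 4 were found in 404 of 28192 cells, a mean of 1.37% over mice. With most positive cells at 1 or a few UMIs, a transcript not found in a cell may still have been present.

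**Figure D4:**
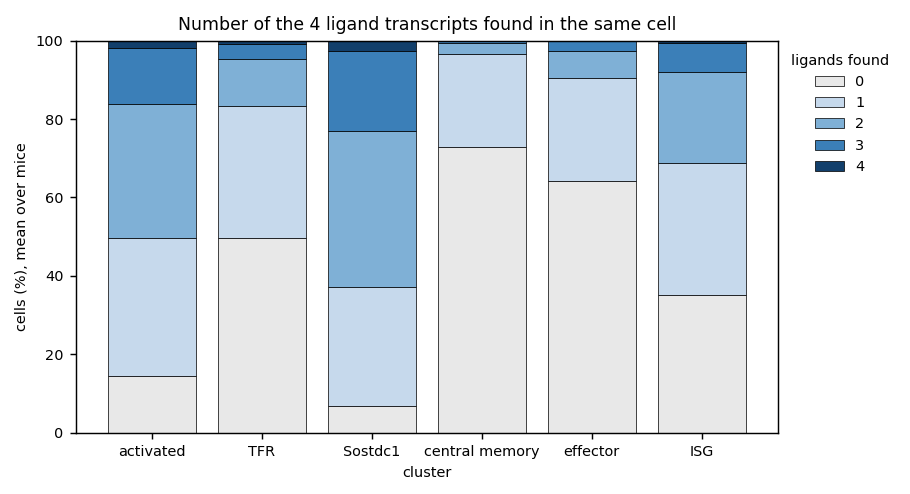
Percent of cells (y axis, mean over mice) in which 0, 1, 2, 3 or 4 of the ligand transcripts Cd40lg, Tnfsf8, Tnfsf11 and Tnfsf14 were found, stacked by cluster (x axis). Cells with none make up 6.65% of the Sostdc1 and 49.7% of the TFR cluster.

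The matched receptors allowed a comparison within mice, between cells of expanded clones (the same pair of CDR3 alpha and beta sequences in 3 cells or more of a mouse) and cells whose pair was found once. A receptor was matched to 21405 of the 28192 cells (75.9%). In WT mouse 36 this was 1936 of 4030 cells and in 564Igi mouse 34 it was 1652 of 2924. The matched share was higher in each other mouse, and its part in the clone differences was not tested. In activated TFH cells Tnfsf8 was higher in expanded clones in 10 of 10 mice. The difference was 0.59, 0.40, 0.22, 0.40 and 0.15 on the log2 scale in the WT mice and 0.20, 0.20, 0.05, 0.28 and 0.09 in the 564Igi mice, with 0.26 ± 0.163 (SD, n = 10) as the mean. The exact sign-flip permutation p was 0.00195, the smallest that 10 mice allow, and the adjusted p was 0.0606 by limma, so the gene was not called. No gene was called in this contrast (0% of genes, against 22.4% at an unadjusted p below 0.05), and 2 of the 5 genes, Tnfsf8 and Cd40lg, were among the latter. Positive cells made up 56.5% of single-clone and 67.2% of expanded-clone cells. The WT mean of 0.35 and the 564Igi mean of 0.17 did not differ beyond the spread of mice (exact permutation p = 0.0714).

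Cd40lg differed less between the clones of activated cells, by 0.056 ± 0.072 (higher in 8 of 10 mice, exact sign-flip permutation p = 0.0176, adjusted p = 0.129 by limma), and the difference was -0.022 when each clone counted once. Tnfsf11 had a mean difference of -0.0090, but 4 of 5 WT mice lay above 0 (0.13, 0.076, -0.0064, 0.044 and 0.067) and 4 of 5 564Igi mice below it (0.011, -0.18, -0.13, -0.09 and -0.013). The means of 0.062 and -0.08 differed with an exact permutation p of 0.0159, 1 of 10 such differences tested.

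Among TFR cells Tnfsf11 was lower in expanded clones in 9 of 10 mice, by -0.056 ± 0.042 on the log2 scale (exact sign-flip permutation p = 0.00391, adjusted p = 0.0586 by limma), with 29% positive cells in single and 24.3% in expanded clones. The exception was 564Igi mouse 24 at 0.0047, the mouse with fewest cells. The direction held in 13 of 13 alternatives, but the limma adjusted p ran from 0.0415 to 0.685. With 1 mouse left out in turn it ran from 0.0478 to 0.113, so the highest value came from a change of clone definition or weighting. In this contrast too no gene was called (0%, against 17.9% of genes at an unadjusted p below 0.05, among them Tnfsf11 and Tnfsf8). Tnfsf8 was lower in expanded TFR clones by -0.038 ± 0.055 (exact sign-flip permutation p = 0.0586), but the difference was 0.19 when each clone counted once, and that of Cd40lg went from -0.014 to 0.12, so their direction in TFR depended on how clones were weighted. Tnfsf14 and Tnfrsf9 had differences of -0.0079 and -0.047 there (exact sign-flip permutation p = 0.305 and 0.143).

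**Figure D5:**
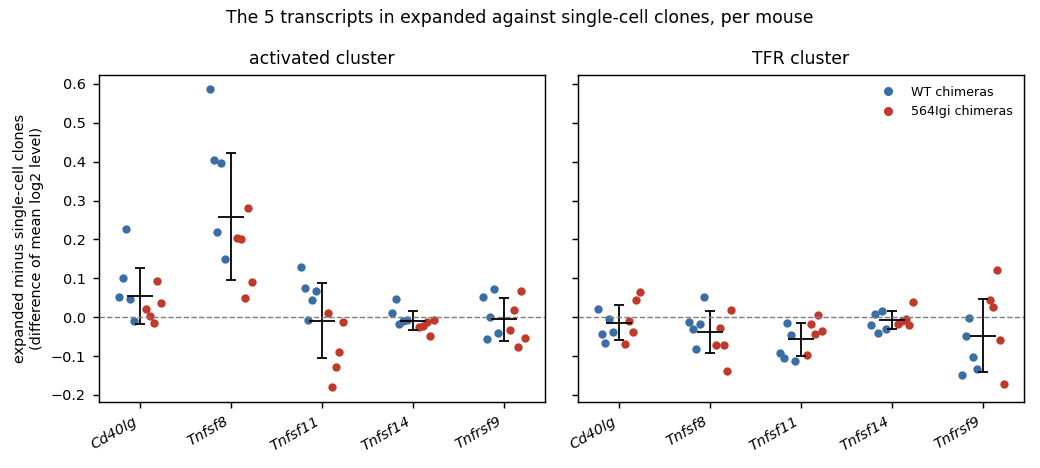
Difference in mean log2(corrected count + 1) between cells of expanded clones and cells of single-cell clones (y axis) for each of the 5 genes (x axis) in activated TFH and TFR cells, 1 point per mouse with bars for mean and SD of 10 mice. All 10 mice lie above 0 for Tnfsf8 in activated cells, and 9 of 10 lie below 0 for Tnfsf11 in TFR cells.

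The other genes of the family give the setting. Of 14 other ligands 10 were in the matrix and 7 tested between chimeras, of 21 other receptors 16 and 13, of the 7 binding partners of the 5 genes 5 and 3, and of 11 TRAF adaptors and their partners all 11. None was called over all cells or in the 3 large clusters. Over all cells the median log2 differences of these lists were -0.013, -0.0019, 0.0036 and 0.0012, beside -0.0018 over all genes tested. At an unadjusted p below 0.05 over all cells, where 3.19% of all genes stood, were 2 of 7 ligands, Tnf and Lta, and 1 of 3 partners, Tnfrsf8, all lower in 564Igi mice, and 0 of 13 other receptors and 0 of 11 adaptors. Lta, encoding lymphotoxin alpha, was found in 8.50% of cells, and its log2 level was 0.11 in WT and 0.08 in 564Igi mice (difference -0.03, adjusted p = 0.802 by limma). The 564Igi mice lay below all WT mice for Lta over all cells and in each of the activated, TFR and Sostdc1 clusters, as 0.452%, 0.385%, 0.710% and 0.840% of genes did not overlap in either direction. Lta was not among the genes chosen for naming and is given because its groups did not overlap. Tnf itself was found in 16.5% of cells (difference -0.036, adjusted p = 1.0 by limma), and its groups did not overlap in Sostdc1 cells (difference -0.076, adjusted p = 0.928 by limma).

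Among the receptors that pair with the 5 genes, Tnfrsf8, which encodes the CD30 that binds the product of Tnfsf8, was found in 5.75% of cells and in 9.90% of TFR cells. Its log2 difference between chimeras was -0.026 over all cells and -0.039 in TFR (adjusted p = 1.0 and 0.97 by limma). Tnfrsf14, the HVEM that binds LIGHT, was found in 6.02% of cells, and Tnfsf9, the ligand of 4-1BB, in 5.53%. Cd40 and Ltbr, receptors carried by B cells and stromal cells, were at 0.301% and 0.421%. The RANKL receptor genes Tnfrsf11a and Tnfrsf11b were looked for and were not among the genes of the matrix.

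Like Tnfrsf9, the costimulatory receptors Tnfrsf4 (OX40) and Tnfrsf18 (GITR) were found in more TFR cells, at 84.8% and 78.8% against 65.0% and 60.1% of all cells, and Tnfrsf1b, a TNF receptor, in 38.5% against 24.4%. Cd27 was found in 71.1% of all cells, Fas, the death receptor, in 22.6%, Tnfrsf13b (TACI) in 19.2%, Tnfrsf25 in 14.2% and Tnfrsf1a in 12.5%. Ltb, the lymphotoxin beta gene, was found in 90.2%. Of the adaptors, Traf1, which binds 4-1BB and CD30 among others, was found in 46.6% of all cells and 52.8% of TFR cells. Tank was found in 42.0%, Traf5 in 25.5%, Traf2 in 22.1%, Tradd in 21.8%, Birc3 in 17.8%, Birc2 in 14.1%, Ripk1 in 11.3% and Traf3 in 11%. Their TFR shares were not compared by a test.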

How the data were processed

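Single-cell RNA-seq and T cell receptor libraries of 10 mice were used. Per the labels and the study's methods, the authors counted reads with Cell Ranger 4.0.0 against GRCm38 (mm10), filtered cells on genes, UMIs, mitochondrial and ribosomal shares and cell cycle scores, removed receptor genes, and normalised WT and 564Igi cells separately with sctransform in Seurat 3.1.4. The matrix deposited by the authors holds natural log values of corrected counts plus 1. The deposited cell table gives raw UMI counts, the percent of mitochondrial UMIs (at most 7.00), a heat shock score and the cluster of each cell. Whether doublets were removed is not given in the sources used here, and no caller was run.

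The log was undone to whole corrected counts (each within 1e-06 of a whole number, 2804 to 4591 per cell). The mean of log2(corrected count + 1) over the cells of a mouse was compared with limma 3.58.1 (R 4.3.3, trended prior) over genes detected in 1% of cells or more, in a number of mice no lower than the size of the smaller group, in clusters with at least 20 cells per mouse. Two-sided exact permutation tests ran over mice (252 assignments of 5 and 5, 1024 sign patterns over 10 mice for clones) in Python 3.11.15 (scipy 1.17.1, pandas 2.3.3, numpy 2.4.6), with plots drawn by matplotlib 3.10.9. Scripts were tested on simulated data. Counts were corrected within each condition, so a shift of scale between conditions would enter every difference. Such a shift was not tested, and the corrected totals per cell are given in the text. Alternatives changed the prior, filter, scale, measure, covariates, libraries, cluster weights, cells per mouse, depth, detection threshold and clone definition. The 5 genes and all lists were chosen with earlier results of these data known. Named were the 5 genes, the 3 genes most like each, the listed ligands, receptors and adaptors in at least 10% of cells, all binding partners, and Il21, Il4, Foxp3 and Cd4 for co-detection.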

Additional observations from a re-analysis of the deposited data

Results flagged for a closer look

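Of 75 groups of mice checked for a mouse far from the others, 3 held one, where chance gives about 1 in 20. Cd40lg was found in 69.9% of Sostdc1 cells of WT mouse 14, while the other 4 WT mice lay between 56.9% and 59.3%. Tnfsf8 was found in 33.1% of all cells of WT mouse 12, below the 42.3% to 44.1% of the other WT mice, and the median cell of that mouse held 2937.5 UMIs, the fewest of the WT mice. In cells of 3000 to 4500 raw UMIs the share was 35.5% in mouse 12 and 42.8% to 48.2% in the others. The TFR cluster, where Tnfsf8 was found in 21% of cells on average, held 56.4% of the cells of mouse 12, the highest share in WT mice. Their parts in this value were not tested. The difference of Cd40lg between expanded and single clones of activated cells was 0.23 on the log2 scale in WT mouse 14, against -0.016 to 0.10 in the other 9 mice.

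Among the differences tested between clusters and between groups of mice, 2 had an exact permutation p of 0.0159. The 564Igi minus WT difference of Tnfsf8 was smaller in TFR than in activated cells by -0.21 on the log2 scale. The difference of Tnfsf11 between expanded and single clones of activated cells was lower in 564Igi than in WT mice by -0.14. Each was 1 of 10 differences tested, and neither passed the adjusted test across all genes where that was run.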

How the results depend on the processing

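The number of the 5 genes called stayed at 0 in all 165 combinations of comparison and alternative. No paired analysis was possible because no mouse is shared between WT and 564Igi chimeras and the replicate numbers only follow the order of deposit. The differences of Tnfsf8 over all cells kept their direction in 18 of 18 alternatives, at 0.17 to 0.24 with 1 mouse left out in turn, with limma adjusted p from 0.0531 (without 564Igi mouse 17) to 1. Those of Tnfsf8 in activated cells lay at 0.23 to 0.33, and those of Tnfsf11 at -0.13 to -0.084 over all cells, -0.15 to -0.10 in TFR and -0.15 to -0.11 in Sostdc1 cells. Wider ranges were those of Tnfsf8 in Sostdc1 cells, from 0.11 to 0.25, and Tnfrsf9 over all cells, from -0.11 (without 564Igi mouse 13) to -0.036 (without WT mouse 12). Small differences changed sign. Cd40lg was -0.030 over all cells with 3 clusters weighted equally, and by share of cells -0.198 points in TFR and 1.60 points in ISG, where Tnfrsf9 in TFR was -2.16 points. With labelled sex as a covariate Tnfrsf9 was -0.00029 in TFR and 0.054 in ISG cells. Without mice 34 and 36 it was 0.062 in ISG and Tnfsf8 0.0047 in central memory cells, which with the heat shock score was 0.00044. On the pooled scale Tnfsf8 in effector cells was 0.024, and with at least 50 cells per mouse Tnfrsf9 there was -0.029. With each clone counted once the differences in activated cells were -0.022 for Cd40lg and 0.032 for Tnfrsf9, and in TFR 0.12 for Cd40lg, 0.19 for Tnfsf8 and 0.034 for Tnfsf14. The causes were not tested. With 1 mouse left out in turn, Cd40lg ranged from -0.0052 to 0.036 over all cells, -0.049 to 0.017 in activated, -0.067 to 0.028 in ISG and -0.0018 to 0.052 for TFR minus activated, Tnfsf14 from -0.015 to 0.0020 in TFR and -0.0076 to 0.013 in ISG, Tnfrsf9 from -0.033 to 0.031 in TFR and -0.099 to 0.024 in ISG, Tnfsf8 from -0.033 to 0.0047 and Tnfsf11 from -0.0038 to 0.073 in central memory, Tnfsf11 from -0.058 to 0.0080 in effector cells, and between clones of activated cells Tnfsf11 from -0.024 to 0.0099 and Tnfrsf9 from -0.014 to 0.0029. A limma prior without the trend, added after seeing the data, gave adjusted p = 0.506 for the Tnfsf8 difference between TFR and activated cells and 0.0108 for its clones, and called 8 genes in activated and 4 in TFR clones, none of the 5. Co-detection ratios moved by more than 1 SD of mice in 41 of 80 cases at 2 UMIs or without depth classes, as Cd40lg with Tnfsf8 over all cells, from 1.10 to 1.25 and 1.40. Depth limits Tnfsf14 most, since 86.3% of its positive cells held 1 UMI.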
